A study of Homo sapiens with 9 samples.

Results

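The MITF/TFE family holds 4 human genes, MITF, TFEB, TFE3 and TFEC. Their probe sets were taken by gene symbol from the array's annotation, every probe set that names 1 gene being kept, which gave 12 probe sets of 41091 and 4 genes of 19775. MITF had 3 probe sets, TFEB 2, TFE3 4 and TFEC 3. The family was chosen with the differences between treatments already known, so its own values are described here without p-values.

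The proteins of this family are basic helix-loop-helix leucine zipper transcription factors that bind E-box DNA as homodimers or as heterodimers with one another. MITF is the master regulator of pigment cells, where a promoter of its own responds to cAMP through CREB, and it also acts in osteoclasts and mast cells. TFEB and TFE3 switch on genes of lysosomes and autophagy: the mTORC1 kinase holds them in the cytoplasm, and calcineurin, a calcium-dependent phosphatase, helps to release them into the nucleus. TFEC is known mainly from macrophages.

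Expression was measured on Affymetrix arrays in H295R, a steroid-producing line derived from a human adrenocortical carcinoma. The cells were exposed for 3 h to 100 nM torcetrapib, to 100 nM angiotensin II, or to DMSO, the vehicle, with 3 arrays in each group. Torcetrapib blocks cholesteryl ester transfer protein (CETP), and angiotensin II is the peptide hormone that drives aldosterone secretion. The study asked whether CETP inhibitors turn on the renin-angiotensin-aldosterone pathway in adrenal cells. H295R is a single tumour line, and nothing in the labels tells whether each array had its own culture. The p-values therefore cover only how these samples spread, possibly for technical reasons, and the number of arrays limits the precision.

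Values were deposited on a log2 scale, summarised for each probe set by robust multi-array averaging (RMA), and a difference of 1 is a doubling of signal. Arrays of a group correlated over all probe sets with r between 0.995 and 0.998, and arrays of different groups with r between 0.990 and 0.997. A 5′ to 3′ index, the mean for GAPDH and ACTB of the 5′ minus the 3′ control signal on the log2 scale, served as a sign of RNA quality. It lay between -0.275 and -0.219 on the torcetrapib arrays, between -0.627 and -0.597 on the angiotensin II arrays and between -0.719 and -0.276 on the DMSO arrays. The torcetrapib arrays thus lay above the other 6, with DMSO replicate 2 next to them. In bulk samples such as these, fewer cells of a type and less RNA per cell cannot be told apart.

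The sequences below show where a cAMP response element (CRE) stands among the starts of MITF, the family member with the largest differences. RefSeq (GRCh38.p14) lists 3 MITF starts on chromosome 3, all on the plus strand, and the 250 bases before each are printed 5′ to 3′ with the CRE in capitals. The third is the start of the melanocyte-type form. The windows are chr3:69739214-69739463 for the first, chr3:69763561-69763810 for the second and chr3:69936342-69936591 for the third.
MITF start 1: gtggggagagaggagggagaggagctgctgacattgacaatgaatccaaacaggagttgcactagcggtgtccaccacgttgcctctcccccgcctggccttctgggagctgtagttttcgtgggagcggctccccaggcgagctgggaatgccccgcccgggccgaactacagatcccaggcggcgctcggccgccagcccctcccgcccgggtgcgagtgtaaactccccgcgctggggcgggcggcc
MITF start 2: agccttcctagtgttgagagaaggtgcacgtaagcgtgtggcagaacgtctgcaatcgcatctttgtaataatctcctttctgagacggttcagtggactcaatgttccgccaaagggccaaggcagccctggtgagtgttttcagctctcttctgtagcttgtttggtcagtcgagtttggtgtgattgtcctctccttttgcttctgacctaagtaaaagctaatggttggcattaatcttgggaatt
MITF start 3: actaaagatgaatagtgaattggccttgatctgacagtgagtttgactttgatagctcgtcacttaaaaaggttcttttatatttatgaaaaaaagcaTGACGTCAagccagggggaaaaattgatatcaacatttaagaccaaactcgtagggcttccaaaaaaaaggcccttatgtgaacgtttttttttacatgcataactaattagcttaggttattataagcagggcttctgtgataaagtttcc

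The full element, TGACGTCA, was found once among the MITF promoters, at -152 from the third start. It was searched on both strands over 250 bases before and 50 after each start, and 649 of 35116 RefSeq promoters of that length (1.85%) hold it. The shorter element TGACG, which lies within the full one on both strands, had 3 matches at the third start and none at the other MITF starts, and 24.6% of all promoters hold it. None of the promoters listed for TFEB, TFE3 or TFEC held either. An AP-1 site, TGANTCA, was found in the TFE3 promoter at -42 and in 7.71% of all promoters. The nuclear receptor element AAAGGTCA, held by 1.22% of all promoters, and the E-box CACGTG, held by 7.26%, were in none of the family's promoters. A match describes the letters only, and the starts were not assigned to the probe sets here.

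MITF was higher with both treatments on each of its 3 probe sets, and more so with angiotensin II. The brightest, 207233_s_at, read 10.76, 10.84 and 10.75 on the torcetrapib arrays. It read 12.55, 12.43 and 12.57 on the angiotensin II arrays, against 9.63, 9.60 and 9.49 on the DMSO arrays. The 3 groups did not overlap, and the torcetrapib arrays stood between the other groups. The means were 10.78 ± 0.05 with torcetrapib, 12.52 ± 0.08 with angiotensin II and 9.57 ± 0.07 with DMSO (SD, n = 3 each). Torcetrapib against DMSO gave a log2 difference of 1.21 ± 0.05 (SE), which is 2.31-fold, with a 95% interval of 2.14- to 2.50-fold. Angiotensin II against DMSO gave 2.94 ± 0.05 (SE), which is 7.70-fold, with an interval of 7.13- to 8.31-fold. Torcetrapib against angiotensin II gave -1.74 ± 0.05 (SE), a level 3.33-fold lower. Both differences from DMSO use the same 3 DMSO arrays.

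The second MITF probe set, 226066_at, showed the same order. It read 10.35, 10.58 and 10.37 with torcetrapib. It read 12.36, 12.17 and 12.28 with angiotensin II, against 9.50, 9.21 and 9.28 with DMSO. Again no array of one group reached another group. The log2 differences were 1.10 ± 0.08 (SE) for torcetrapib minus DMSO and 2.94 ± 0.08 for angiotensin II minus DMSO, or 2.15-fold and 7.68-fold higher.

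The third MITF probe set, 1554874_at, was dim, with a mean below the lower quartile of probe sets (4.41). It read 4.01 on all 3 torcetrapib arrays. It read 5.42, 5.25 and 5.56 on the angiotensin II arrays, against 3.30, 3.19 and 3.65 on the DMSO arrays. Readings equal within 1e-09 on all 3 arrays of a group occurred at 269 probe sets with torcetrapib, 229 with angiotensin II and 340 with DMSO. The groups were apart here too, with log2 differences of 0.63 ± 0.12 (SE) for torcetrapib minus DMSO and 2.03 ± 0.12 for angiotensin II minus DMSO. So near the bottom of the scale no fold is given.

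**Figure D1:**
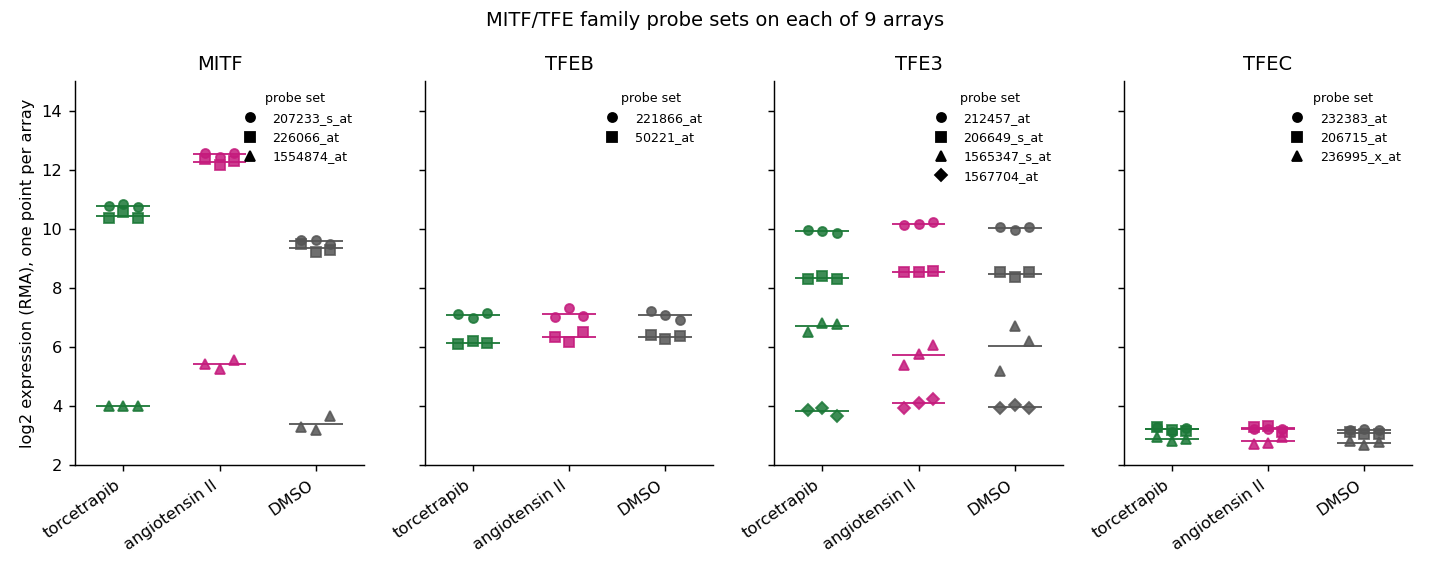
Log2 expression (RMA) of the 12 family probe sets, with 1 panel per gene, 1 point per array and a bar at each group mean (n = 3), for torcetrapib, angiotensin II and DMSO. The MITF points separate by group on all 3 probe sets, with angiotensin II highest and DMSO lowest, while most TFEB, TFE3 and TFEC points overlap between groups.

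By size of difference, MITF stood near the top of the 19775 genes when each was represented by its brightest probe set. It ranked 8 from the highest for torcetrapib minus DMSO and 10 from the highest for angiotensin II minus DMSO. For torcetrapib minus angiotensin II it ranked 27 from the lowest. These ranks describe values that served to choose the gene.

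TFE3, a close relative of MITF in lysosome control, had 2 bright probe sets that moved little. The first, 212457_at, read 9.97, 9.92 and 9.84 with torcetrapib. It read 10.13, 10.16 and 10.23 with angiotensin II, against 10.04, 9.94 and 10.06 with DMSO. The angiotensin II arrays lay just above those of both other groups, and the torcetrapib and DMSO arrays overlapped. The log2 difference was -0.11 ± 0.05 (SE) for torcetrapib minus DMSO, 0.15 ± 0.05 for angiotensin II minus DMSO and -0.26 ± 0.05 for torcetrapib minus angiotensin II. With the 5′ to 3′ index as a covariate the last was -0.18, and over the mean of the 4 TFE3 probe sets it was 0.05.

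The second bright TFE3 probe set, 206649_s_at, read 8.29, 8.41 and 8.31 with torcetrapib. It read 8.53, 8.54 and 8.58 with angiotensin II, against 8.53, 8.37 and 8.53 with DMSO. The torcetrapib arrays were below the angiotensin II arrays and overlapped those of DMSO. The log2 difference was -0.14 ± 0.07 (SE) for torcetrapib minus DMSO and 0.08 ± 0.07 for angiotensin II minus DMSO. A dim TFE3 probe set, 1567704_at, ranged from 3.67 to 3.94 with torcetrapib, from 3.94 to 4.25 with angiotensin II and from 3.94 to 4.04 with DMSO.

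The fourth TFE3 probe set, 1565347_s_at, went the other way and varied widely within groups. It read 6.52, 6.81 and 6.78 with torcetrapib. It read 5.39, 5.76 and 6.06 with angiotensin II, against 5.19, 6.72 and 6.21 with DMSO. Its DMSO arrays spanned most of the range of all 9 arrays, and the DMSO array with the highest reading, replicate 2, also had the highest index of its group. The log2 difference was 0.67 ± 0.30 (SE) for torcetrapib minus DMSO and 0.96 ± 0.30 for torcetrapib minus angiotensin II. With the index as a covariate, an alternative fit, these became -0.24 and -0.35. With the same covariate MITF 207233_s_at kept differences of 1.21 from DMSO with torcetrapib and 2.94 with angiotensin II. In torcetrapib minus angiotensin II the index did not overlap between the groups, so the covariate and the treatment can hardly be told apart there.

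**Figure D2:**
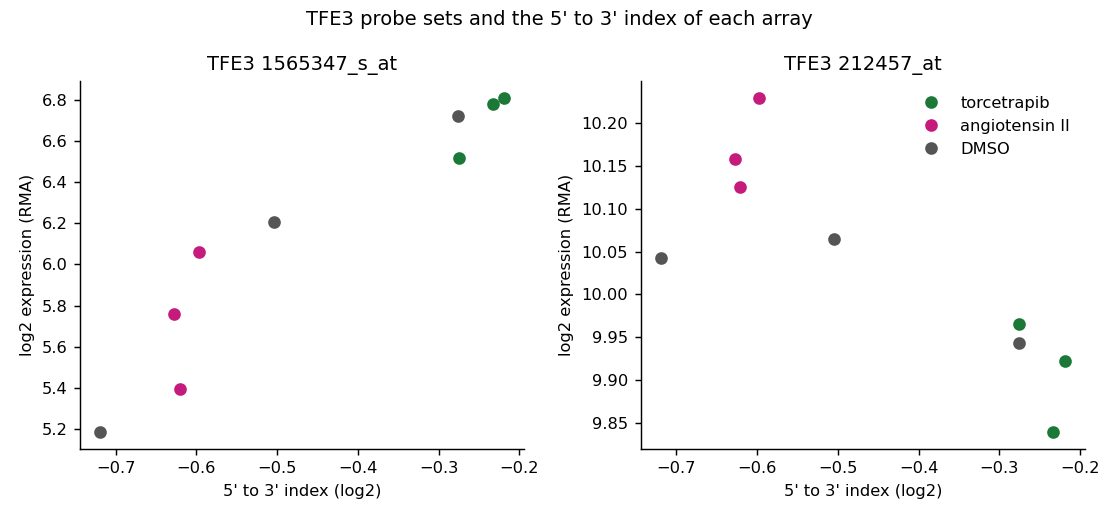
Log2 expression (RMA) of TFE3 probe sets 1565347_s_at and 212457_at (y axes) against each array's 5′ to 3′ index (x axes, log2), 1 point per array, coloured by treatment. Readings of 1565347_s_at are high where the index is high, DMSO replicate 2 included at 6.72, whereas 212457_at spans only 9.84 to 10.23 and is lower on the arrays with a high index.

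TFEB, whose protein gives its name to the lysosomal programme, showed no separation that held on both of its probe sets. Its probe set 221866_at read 7.13, 6.98 and 7.13 with torcetrapib. It read 7.01, 7.31 and 7.05 with angiotensin II, against 7.23, 7.08 and 6.91 with DMSO, so all 3 groups overlapped. The interval of torcetrapib minus DMSO ran from -0.23 to 0.24 and that of angiotensin II minus DMSO from -0.19 to 0.28 on the log2 scale. The other, 50221_at, read 6.09, 6.21 and 6.12 with torcetrapib. It read 6.33, 6.16 and 6.50 with angiotensin II, against 6.40, 6.25 and 6.38 with DMSO. Here the torcetrapib arrays lay just below the DMSO arrays, with a log2 difference of -0.20 and an interval from -0.42 to 0.02.

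TFEC was dim on all 3 probe sets, each with a mean below that lower quartile. Its readings lay between 2.83 and 3.28 with torcetrapib, between 2.73 and 3.31 with angiotensin II and between 2.66 and 3.23 with DMSO. The differences ran from 0.02 to 0.13 for torcetrapib minus DMSO and from 0.03 to 0.16 for angiotensin II minus DMSO. On 206715_at the unadjusted interval of angiotensin II minus DMSO ran from 0.01 to 0.31. There and on 236995_x_at the torcetrapib arrays lay just above the DMSO arrays. No TFEC probe set passed in limma in any comparison. At such a signal a small change in a scarce transcript could be missed.

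Counts over the family are given beside the background of the whole array. At limma's adjusted p of 0.05, 3 of 12 family probe sets passed for torcetrapib minus DMSO, where 1.11% of all 41091 did (0.849% higher and 0.263% lower). The same 3 MITF probe sets passed for angiotensin II minus DMSO, where 3.63% of all did (2.17% higher and 1.46% lower). For torcetrapib minus angiotensin II 4 passed, the 3 of MITF and TFE3 212457_at, where 11.6% of all did (7.22% higher and 4.37% lower). Of the 9 probe sets of TFEB, TFE3 and TFEC, 0 passed in limma in either comparison with DMSO. The unadjusted 95% interval excluded 0 for 1 of the 9 with torcetrapib and for 2 with angiotensin II, where 14.2% and 14.1% of all probe sets had an unadjusted p under 0.05. Arrays of the compared groups did not overlap for 6 of 12 family probe sets in torcetrapib against DMSO (17.3% of all probe sets), 5 of 12 in angiotensin II against DMSO (15.3%) and 6 of 12 in torcetrapib against angiotensin II (29.2%). With the 5′ to 3′ index as a covariate, 333 of all probe sets were called for torcetrapib minus angiotensin II, against 4762 without it, so a call lost there is no sign by itself that a difference shrank. Since the family was chosen on these contrasts, the counts describe it and carry no test. Whether MITF differed more than its relatives was not tested.

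**Figure D3:**
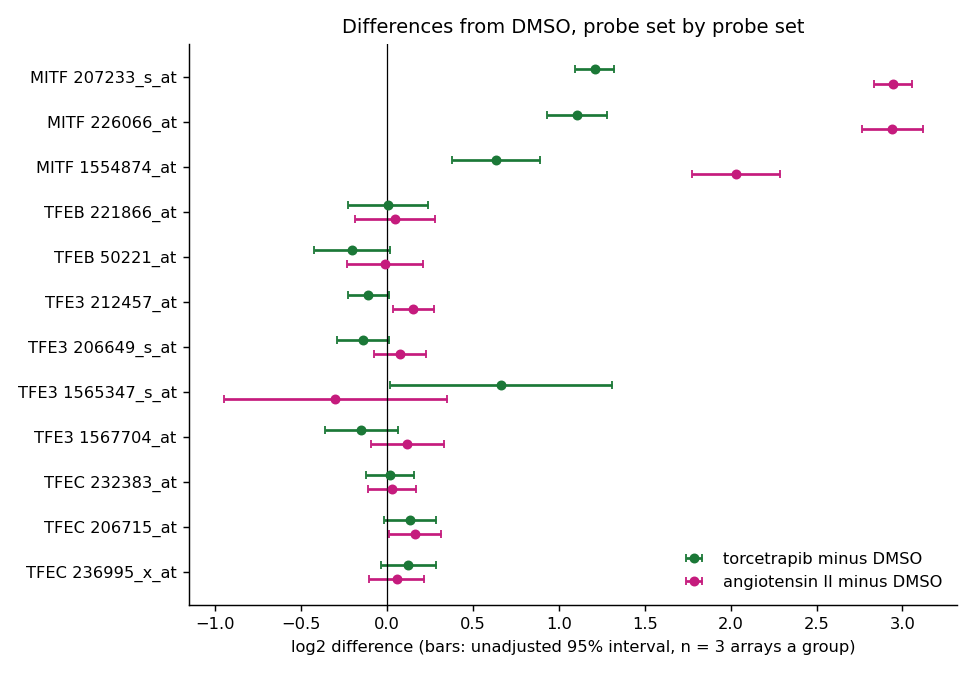
Log2 differences from DMSO (x axis) of each family probe set (y axis), torcetrapib above angiotensin II in each pair, with unadjusted 95% intervals (n = 3 arrays a group). MITF reaches 1.21 with torcetrapib and 2.94 with angiotensin II, and the other probe sets lie between -0.30 and 0.67.

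Genes were ranked by how near their pattern over the 9 arrays was to that of MITF. Likeness was the Euclidean distance between values centred on each gene's DMSO mean, and the nearest 8 of 19775 genes are named. They were FOS, NFIL3, NR4A1, NR4A3, TRIB1, C11orf96, PAQR9 and TENT5A, at distances from 0.405 to 0.969 and with Pearson r from 0.978 to 0.997 over the 9 arrays. These arrays form 3 groups, so r mainly restates the order of the group means, and the search itself fixed the resemblance. FOS, a subunit of AP-1, stood at 7.59 with torcetrapib and 9.37 ± 0.04 with angiotensin II, against 6.55 ± 0.04 with DMSO (SD, n = 3 each). NFIL3, a bZIP repressor, stood at 9.70 ± 0.11 with torcetrapib and 11.60 ± 0.04 with angiotensin II, against 8.69 ± 0.11 with DMSO. NR4A1, an orphan nuclear receptor, was 1.36 above DMSO with torcetrapib and 2.73 above it with angiotensin II on the log2 scale. Its relative NR4A3 was 1.46 above DMSO with torcetrapib and 2.97 above it with angiotensin II. Promoters were listed for 6 of the 8 genes. None held the full CRE, and FOS, NFIL3 and NR4A3 held the shorter element TGACG, which 28.4% of all genes, 48.8% of the lysosomal genes and 52.4% of the autophagy genes below also hold.

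**Figure D4:**
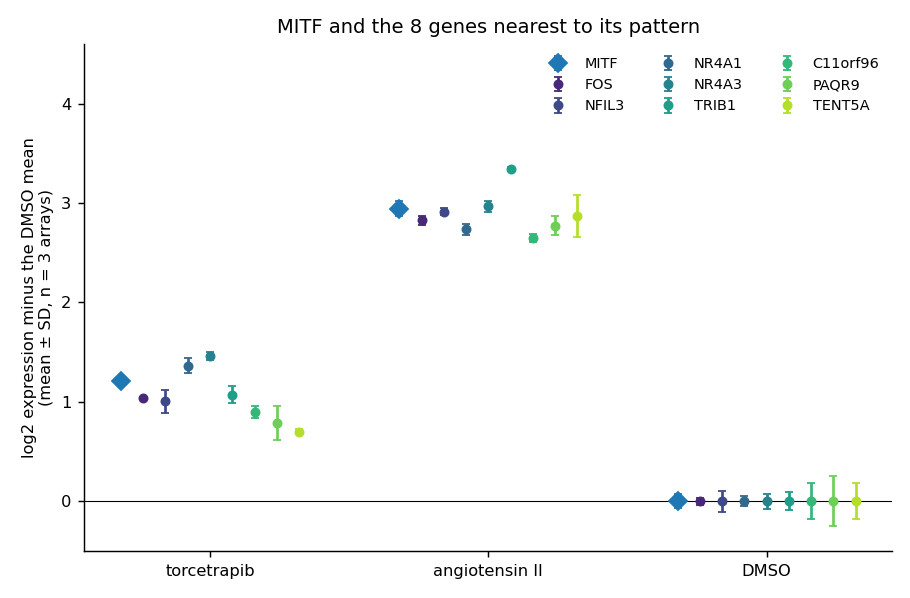
Log2 expression minus the DMSO mean (y axis; mean ± SD, n = 3 arrays) of MITF, drawn as a diamond, and of the 8 genes nearest to its pattern under torcetrapib, angiotensin II and DMSO. With angiotensin II the genes lie between 2.65 and 3.34 and with torcetrapib between 0.70 and 1.46, around MITF at 2.94 and 1.21.

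Genes that act on MITF transcription were led by SIK1, a kinase that restrains CREB coactivators. Of 20 measured regulators, 2 rose and 0 fell with torcetrapib against DMSO, where 0.819% of all genes passed in limma (0.445% higher and 0.374% lower). With angiotensin II 2 rose and 1 fell, where 4.64% of all genes passed (2.74% higher and 1.91% lower). The median difference was -0.04 for torcetrapib minus DMSO, beside -0.03 over all genes, and 0.03 for angiotensin II minus DMSO, beside 0.01 over all genes. SIK1 stood at 8.83 ± 0.00 with torcetrapib and 9.89 ± 0.06 with angiotensin II, against 7.09 ± 0.24 with DMSO (SD, n = 3 each). It rose 3.34-fold with torcetrapib (limma adjusted p = 1.99e-06) and 6.99-fold with angiotensin II (adjusted p = 2.64e-09). CREM, a CREB relative with an early repressor form, rose 1.21-fold with torcetrapib (limma adjusted p = 0.0145) and 1.25-fold with angiotensin II (adjusted p = 0.00106). LEF1, a WNT pathway factor, fell by 0.17 on the log2 scale with angiotensin II (limma adjusted p = 0.0383). The CREM call with torcetrapib was lost without DMSO replicate 3 or any 1 torcetrapib array (adjusted p from 0.0656 to 0.0875), and the LEF1 call without DMSO replicate 1 or 3 or any 1 angiotensin II array (0.0567 to 0.16). Probe sets of a gene disagreed. A dimmer SIK1 probe set changed by 0.31 with torcetrapib and 0.22 with angiotensin II, and it alone is left without the _x_at and _s_at types (limma adjusted p = 0.24 and 0.427). The 6 CREM probe sets ran from -0.01 to 0.60 with torcetrapib, with 3 past the threshold, and from -0.25 to 0.76 with angiotensin II, with 4 past it.

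Against angiotensin II, torcetrapib left 3 of these 20 regulators lower and 0 higher, where 9.88% of all genes passed (4.03% higher and 5.86% lower). SIK1 was 2.09-fold lower with torcetrapib than with angiotensin II (limma adjusted p = 4.52e-05). The CREB coactivators CRTC2 and CRTC3 were lower by small amounts, with log2 differences of -0.27 and -0.20 (limma adjusted p = 0.0247 and 0.0215). Only SIK1 passed without angiotensin II replicate 1, without torcetrapib replicate 3 or with the index as a covariate. Over the mean of a gene's probe sets 5 of the 20 passed, 3 of them higher with torcetrapib. There CRTC3 turned to a log2 difference of 0.41 (limma adjusted p = 0.0178). SOX10 and PAX3, which drive MITF in pigment cells, did not pass in any of the 3 comparisons. SOX10 stood at 5.92 ± 0.03 with torcetrapib and 5.93 ± 0.25 with angiotensin II, against 5.90 ± 0.07 with DMSO.

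Among genes that control where TFEB and TFE3 reside, RCAN1 alone passed against DMSO. Of 31 measured genes of the mTORC1, folliculin and calcineurin pathways, 0 passed in limma with torcetrapib against DMSO, and 2 were higher and 3 lower at an unadjusted p under 0.05, where 11.9% of all genes had one. With angiotensin II 1 passed, or 3.23% of the list beside 4.64% of all genes. It was RCAN1, a calcineurin inhibitor that calcineurin itself induces. RCAN1 stood at 9.50 ± 0.04 with torcetrapib and 10.23 ± 0.07 with angiotensin II, against 9.48 ± 0.10 with DMSO (SD, n = 3 each). It rose 1.68-fold with angiotensin II (limma adjusted p = 8.81e-06), and torcetrapib minus DMSO was 0.02 (adjusted p = 0.947). Without the _x_at and _s_at probe sets the angiotensin II difference was 0.28 (limma adjusted p = 0.344), and that between the treatments was -0.084 (adjusted p = 0.751). Another RCAN1 probe set passed with torcetrapib against DMSO, at a log2 difference of 0.66. Torcetrapib against angiotensin II had 3 of the 31 genes higher and 2 lower, or 16.1% beside 9.88% of all genes. RCAN1 was 1.66-fold lower and AKT1 1.23-fold lower, while RRAGB, a Rag GTPase, was 1.37-fold higher, PPP3R1, the calcineurin regulatory subunit, 1.45-fold higher, and LAMTOR3, a Ragulator subunit, higher by 0.23 on the log2 scale. Leaving out 1 array gave between 1 and 7 called genes, the fewest without torcetrapib replicate 3. With the index as a covariate RCAN1 alone passed. The PPP3R1 call was kept in 5 of 17 alternatives. FLCN, folliculin itself, stood at 7.26 ± 0.03 with torcetrapib and 7.13 ± 0.15 with angiotensin II, against 7.33 ± 0.07 with DMSO.

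Lysosomal genes, a class in which TFEB, TFE3 and MITF are known to bind CACGTG, gave few calls against DMSO. RefSeq promoters of 41 lysosomal genes were listed, and 16 of them held the E-box CACGTG (39.0%), against 8.77% of all genes. Examples of these letters follow, and binding was not measured. The E-box is in capitals with 10 bases on each side in promoters of CD63, at chr12:55729174-55729199 on the minus strand, of ATP6V1G1, at chr9:114587701-114587726, of LAMP1, at chr13:113297037-113297062, and of ATP6V0B, at chr1:43974893-43974918, these 3 on the plus strand (RefSeq, GRCh38.p14).
CD63: gggtaggggcCACGTGgccctggccg
ATP6V1G1: gctgtgcggtCACGTGacaacggggg
LAMP1: caggccgggtCACGTGggtccagggt
ATP6V0B: ggcgtggggtCACGTGgtaccggcgc

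Of 56 measured lysosomal genes, 0 passed in limma with torcetrapib against DMSO, and 2 were higher and 10 lower at an unadjusted p under 0.05, or 12 of 56 where 11.9% of all genes had one. The median log2 difference was -0.05, beside -0.03 over all genes. Without DMSO replicate 2, 7 of the 56 passed, only 1 of them higher. The calls over all 41091 probe sets rose from 457 to 2728 there, and 1801 of these were higher. With angiotensin II 1 rose and 1 fell, which is 3.57% of the list beside 4.64% of all genes, and the median was -0.02, beside 0.01 over all genes. ATP6V0A1, a membrane subunit of the proton pump, rose 1.27-fold with angiotensin II (limma adjusted p = 0.00404), though its other probe set differed by -0.04. ATP6AP2, the accessory subunit also called the prorenin receptor, fell by 0.22 on the log2 scale (limma adjusted p = 0.00369). LAMP1, whose E-box is printed above, stood at 12.65 ± 0.04 with torcetrapib and 12.70 ± 0.03 with angiotensin II, against 12.76 ± 0.05 with DMSO (SD, n = 3 each). CD63 stood at 13.29 ± 0.01 with torcetrapib and 13.36 ± 0.07 with angiotensin II, against 13.31 ± 0.03 with DMSO. Neither passed in any of the 3 comparisons with all arrays at equal weight. LAMP1 passed as lower with torcetrapib than with DMSO without DMSO replicate 2 (limma adjusted p = 0.0273) and with array weights (0.0433).

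Between the treatments, 8 of the 56 lysosomal genes differed, 3 higher and 5 lower with torcetrapib than with angiotensin II, or 14.3% beside 9.88% of all genes. ATP6V0A1 was 1.39-fold lower (limma adjusted p = 0.000372). Over the mean of its probe sets the log2 difference was -0.075 (limma adjusted p = 0.484). CLCN7, the lysosomal chloride transporter, was lower by a log2 difference of -0.30, and PSAP, the precursor of the saposins, by -0.17. GAA, the acid glucosidase, was 1.23-fold lower, and ARSB, arylsulfatase B, 1.36-fold higher. PIP4P1, a lysosomal phosphatase, was 1.23-fold lower, ATP6V1C1, a proton pump subunit, 1.31-fold higher and ATP6AP2 1.12-fold higher. With the 5′ to 3′ index as a covariate 0 of the 56 passed, though the differences of ARSB (0.51), ATP6AP2 (0.16) and PSAP (-0.15) stayed near their values without it, while that of GAA was -0.065 and that of ATP6V1C1 -0.049. Leaving out 1 array gave between 3 and 8, the lowest without torcetrapib replicate 3. The part of RNA quality in these differences was not tested.

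Among 23 autophagy genes of the TFEB programme, ATG12, a ubiquitin-like protein of autophagosome assembly, moved in opposite directions with the treatments. It stood at 10.74 ± 0.05 with torcetrapib and 10.20 ± 0.03 with angiotensin II, against 10.42 ± 0.06 with DMSO (SD, n = 3 each). It rose 1.25-fold with torcetrapib (limma adjusted p = 0.00924) and fell by 0.22 on the log2 scale with angiotensin II (adjusted p = 0.0206). Torcetrapib against angiotensin II was 1.45-fold higher (limma adjusted p = 2.46e-05). Both calls against DMSO were lost in some alternatives, with adjusted p up to 0.171 for torcetrapib and 0.131 for angiotensin II. The first was lost without DMSO replicate 3 or torcetrapib replicate 1 or 3, and the second without angiotensin II replicate 1 or 2, and without DMSO replicate 2 or 3. The call between the treatments was kept in all 17. No other gene of the list passed against DMSO, though without DMSO replicate 2 there were 3 called genes with torcetrapib and 3 with angiotensin II. Over all probe sets that setting called 2728 with torcetrapib and 1454 with angiotensin II, against 457 and 1490 with all arrays. With angiotensin II the alternatives gave 0 to 5 called genes, 5 with the index as a covariate or with array weights. Between the treatments 4 were higher and 1 lower with torcetrapib, or 21.7% beside 9.88% of all genes. ULK1, the kinase that starts autophagy, was 1.37-fold lower. RAB7A, a GTPase of late endosomes, was 1.18-fold higher, BECN1, a subunit of the autophagy lipid kinase, 1.16-fold higher and GABARAP, an autophagosome coat protein, 1.08-fold higher. Without the _x_at and _s_at probe sets the log2 difference was -0.10 for RAB7A and 0.038 for BECN1 (limma adjusted p = 0.626 and 0.891). Over the mean of a gene's probe sets it was 0.0049 for RAB7A and 0.16 for BECN1. With the index as a covariate ATG12 alone passed, and ULK1 stood at a log2 difference of -0.18. Leaving out 1 array gave between 1 and 3 called genes, the fewest without torcetrapib replicate 3. MAP1LC3B, a coat protein of autophagosomes, stood at 10.31 ± 0.01 with torcetrapib and 10.34 ± 0.06 with angiotensin II, against 10.20 ± 0.11 with DMSO, and did not pass.

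Of 23 measured melanocyte-type targets of MITF, 0 passed in limma in either comparison with DMSO. At an unadjusted p under 0.05, 1 was higher and 3 were lower with torcetrapib, where 11.9% of all genes had one, and 2 were higher and 0 lower with angiotensin II, where 15.2% had one. The median difference was -0.05 for torcetrapib minus DMSO and 0.00 for angiotensin II minus DMSO. TYR, the tyrosinase of melanin synthesis, stood at 4.84 ± 0.12 with torcetrapib and 5.03 ± 0.17 with angiotensin II, against 5.02 ± 0.05 with DMSO (SD, n = 3 each). PMEL, a melanosome protein, stood at 6.20 ± 0.11 with torcetrapib and 6.28 ± 0.10 with angiotensin II, against 6.26 ± 0.18 with DMSO. Between the treatments MC1R, the melanocortin receptor of pigment cells, was 1.36-fold lower with torcetrapib than with angiotensin II, DIAPH1 1.21-fold lower and HIF1A 1.09-fold lower. These were 3 of 23, or 13.0% beside 9.88% of all genes, and 0 passed with the index as a covariate. The HIF1A call was also lost without angiotensin II replicate 1 or 2, or torcetrapib replicate 1 or 2. Of 8 measured targets known from osteoclasts and mast cells 0 passed in limma in any comparison. At an unadjusted p under 0.05, 0 stood out with torcetrapib and 1 with angiotensin II against DMSO, and 0 between the treatments. Of all genes 11.9%, 15.2% and 23.2% had one, in the same order.

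**Figure D5:**
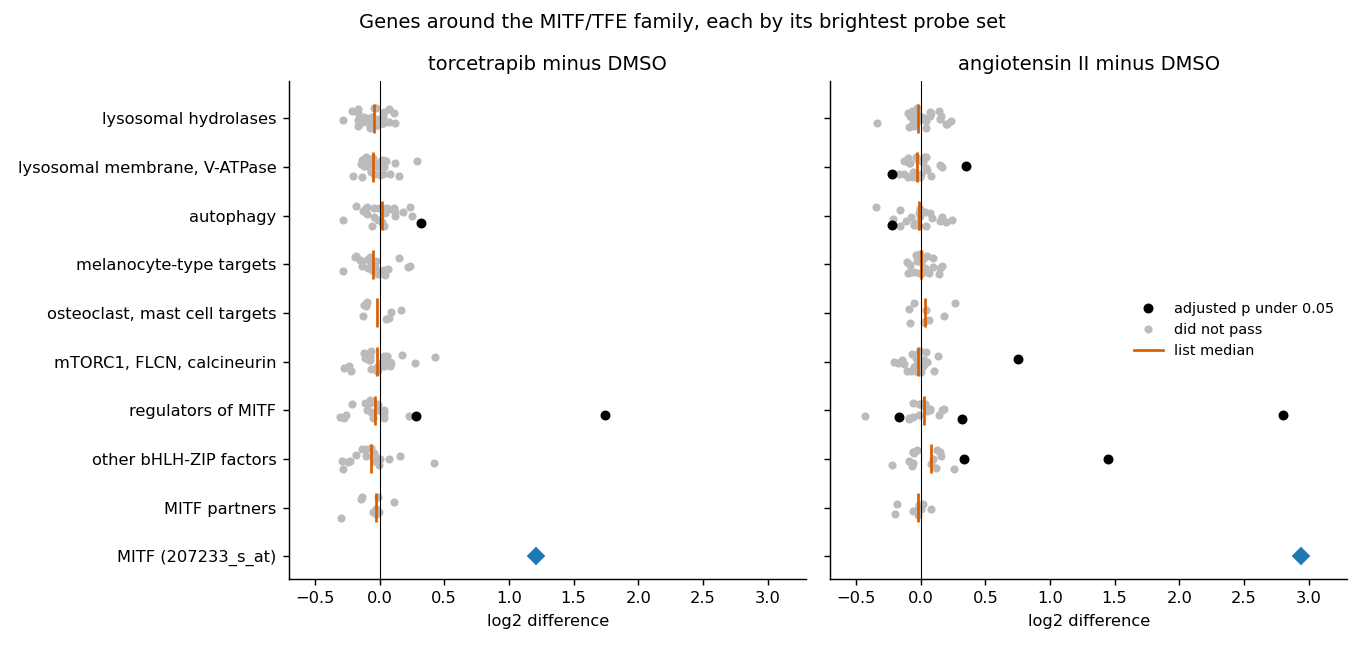
Log2 differences (x axis) of genes in 9 lists around the family, each gene by its brightest probe set, for torcetrapib minus DMSO on the left and angiotensin II minus DMSO on the right. Black points passed an adjusted p of 0.05, grey points did not, orange bars are list medians and the blue diamond is MITF 207233_s_at. List medians lie near 0 while MITF lies at 1.21 and 2.94, and SIK1 and MXD1 are the black points farthest to the right with angiotensin II.

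Other basic helix-loop-helix zipper factors that read E-boxes were tested as 17 genes. With torcetrapib 0 passed in limma against DMSO, and 1 was higher and 4 lower at an unadjusted p under 0.05, where 11.9% of all genes had one. With angiotensin II 2 rose and 0 fell, or 11.8% of the list beside 4.64% of all genes (2.74% higher and 1.91% lower). MXD1, a MAX partner that opposes MYC, stood at 7.55 ± 0.07 with torcetrapib and 8.58 ± 0.14 with angiotensin II, against 7.13 ± 0.19 with DMSO (SD, n = 3 each). It rose 2.73-fold with angiotensin II (limma adjusted p = 2.45e-06), and this call was kept in all 17 alternatives, with adjusted p between 6.77e-08 and 0.000159. MNT, a repressor of the same network, rose 1.26-fold with angiotensin II (limma adjusted p = 0.0237), with adjusted p up to 0.108 over the alternatives, the highest without angiotensin II replicate 1. Torcetrapib against angiotensin II had 4 of the 17 lower and 0 higher, MXD1 by 2.05-fold, USF2 by 1.32-fold, MLXIP by 1.26-fold and MNT by 1.26-fold, where 5.86% of all genes were lower. Over the mean of its probe sets MLXIP had a log2 difference of -0.060 (limma adjusted p = 0.55). With the index as a covariate MXD1 alone passed. Without angiotensin II replicate 1, or without torcetrapib replicate 2, 2 of the 17 passed. MYC stood at 9.61 ± 0.09 with torcetrapib and 9.52 ± 0.06 with angiotensin II, against 9.74 ± 0.13 with DMSO, and did not pass. Of 9 measured partners and modifiers of the MITF protein, HINT1 and SMARCA4 among them, 0 passed in limma in any comparison. At an unadjusted p under 0.05, 0 were higher and 2 lower with torcetrapib against DMSO, 0 higher and 2 lower with angiotensin II against DMSO, and 0 higher and 1 lower between the treatments. Of all genes 11.9%, 15.2% and 23.2% had one, in the same order.

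Marker lists checked the labelled cell type. The 9 measured adrenocortical markers averaged between 9.62 and 9.68 on the torcetrapib arrays, between 9.72 and 9.82 on the angiotensin II arrays and between 9.54 and 9.66 on the DMSO arrays. The lowest of them, MRAP, stood at 6.11 with torcetrapib, 6.14 with angiotensin II and 6.18 with DMSO, below the median gene at 6.73. FDX1, the ferredoxin of steroid synthesis, rose 1.29-fold with torcetrapib (limma adjusted p = 0.0238) and 1.58-fold with angiotensin II (adjusted p = 5.25e-05). With torcetrapib it was the only marker called, or 11.1% of the list beside 0.819% of all genes. The torcetrapib call was lost without DMSO replicate 3 or any 1 torcetrapib array (adjusted p from 0.0968 to 0.119) and with the index as a covariate (0.326). With angiotensin II MC2R, the ACTH receptor, SCARB1, the HDL receptor, and STAR, the carrier of cholesterol into mitochondria, also rose, STAR by 1.15-fold (limma adjusted p = 0.00911). That made 4 of 9 markers, or 44.4% beside 4.64% of all genes. Without the variance trend only 1 of the 9, FDX1, passed. The limma adjusted p was then 0.0655 for MC2R, 0.224 for SCARB1 and 0.15 for STAR. Between the treatments FDX1 and SCARB1 were each 1.22-fold lower with torcetrapib than with angiotensin II (limma adjusted p = 0.0137 and 0.000242). They made 22.2% of the list, beside 9.88% of all genes, and the alternatives gave 1 to 5 called markers. STAR, at a log2 difference of -0.13, was not called but passed as lower in several alternatives (limma adjusted p down to 0.00429). That FDX1 call was lost without angiotensin II replicate 3 or torcetrapib replicate 1 or 3, and that of SCARB1 with the index as a covariate. The MC2R call was lost without DMSO replicate 3 or any 1 angiotensin II array (adjusted p from 0.0846 to 0.15). The 6 measured melanocyte markers averaged between 5.25 and 5.34 with torcetrapib, between 5.33 and 5.43 with angiotensin II and between 5.37 and 5.38 with DMSO, below the median gene at 6.73. The 8 macrophage, osteoclast and mast cell markers averaged between 5.11 and 5.14 with torcetrapib, between 5.13 and 5.20 with angiotensin II and between 5.10 and 5.19 with DMSO. The 4 markers of the adrenal medulla averaged between 5.55 and 5.70 with torcetrapib, between 5.57 and 5.76 with angiotensin II and between 5.65 and 5.73 with DMSO. The highest of them, CHGA, stood at 6.86 with torcetrapib, 6.91 with angiotensin II and 6.80 with DMSO, above the median gene. None of these last 3 lists had a gene past the threshold in limma in any comparison, and at an unadjusted p under 0.05 the macrophage, osteoclast and mast cell list alone had any, 1 with angiotensin II against DMSO and 1 between the treatments. Of all genes 15.2% and 23.2% had one in these comparisons.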

How the data were processed

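Biotin-labelled RNA of 9 H295R samples (3 torcetrapib, 3 angiotensin II, 3 DMSO) was hybridised to Affymetrix arrays, per the labels. The authors deposited log2 values per probe set made by RMA, as the submitters' processing notes state. Neither the program nor the chip definition behind it is given in the sources used here, and the number of arrays, not a count, limits the precision. The table held 54675 probe sets, of which 62 were controls, 41091 named 1 gene, 1801 several and 11721 none. Of the 41091, 41037 matched the current gene table by gene number, and 10523 of the 19775 genes had more than 1 probe set.

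No further normalisation or filter was applied. All 41091 probe sets were fitted with limma 3.58.1 in R 4.3.3, with 3 group means, 6 residual degrees of freedom and the variance trended on intensity. Tests were two-sided, with p-values adjusted by Benjamini-Hochberg over all 41091, and the threshold was 0.05. Unadjusted 95% intervals are given. The fit was tested on simulated data. List genes were taken by their brightest probe set.

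The family and the 13 lists were chosen with earlier results of these data known. The lists hold 221 distinct genes, and 202 of them were measured, the others being not analysed here. All family probe sets are named. Of each list the called genes are named, at most 6 a comparison. Where fewer than 3 were called, some of the brightest members serve as examples. The 8 genes nearest to MITF in pattern are named. Other list genes that are named (FLCN, PAX3, TYR, MAP1LC3B and the E-box example ATP6V0B) and the probe sets other than the brightest were chosen after their values were seen. Alternatives changed the variance moderation, filter, scaling, array weights, groups fitted, probe sets, the index as a covariate and the arrays included. Promoter sequences are RefSeq's (GRCh38.p14). One phrase of the series text counts angiotensin II among CETP inhibitors, and it was not used.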

Additional observations from a re-analysis of the deposited data

How the results depend on the processing

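The direction of MITF from DMSO and between treatments was kept in all alternatives run. The mean over its probe sets gave log2 differences of 0.98 for torcetrapib minus DMSO, 2.64 for angiotensin II minus DMSO and -1.66 for torcetrapib minus angiotensin II. Without _x_at and _s_at probe sets it was 1.10 for torcetrapib minus DMSO and -1.84 for torcetrapib minus angiotensin II. Leaving out 1 array gave 1.17 to 1.23 for torcetrapib minus DMSO, 2.90 to 2.99 for angiotensin II minus DMSO and -1.78 to -1.71 between treatments.

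For torcetrapib minus DMSO, 457 probe sets were called, 349 of them higher. Without the trend there were 142, with array weights 2279, with only the 2 groups compared 228, with the index as a covariate 133, without _x_at and _s_at probe sets 223, with the mean of a gene's probe sets 108 and with 1 probe set per gene 229. After quantile normalising again 414 of 668 were higher. Leaving out 1 array gave 98 to 2728, the lowest without torcetrapib replicate 1 and the highest without DMSO replicate 2. For angiotensin II minus DMSO 1490 were called, and it was 3035 with array weights, 941 with only the 2 groups compared, 954 with the mean of probe sets and 1036 to 1944 with 1 array left out. For torcetrapib minus angiotensin II it was 4762, and 11230 with array weights, 333 with the index, 2519 without _x_at and _s_at probe sets, 2308 with the mean of probe sets, 2232 with 1 probe set per gene and 2713 to 4401 with 1 array left out.

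Of the 56 lysosomal genes, 0 were called for torcetrapib minus DMSO, 1 after quantile normalising again, 5 with array weights and 0 to 7 with 1 array left out. For angiotensin II minus DMSO 2 were called, 1 without the trend, 1 without _x_at and _s_at probe sets, 0 with the mean of probe sets and 2 to 3 with 1 array left out. Between treatments 8 were called, 3 without the trend, 14 after quantile normalising again, 16 with array weights, 0 with the index, 4 without _x_at and _s_at probe sets and 3 to 8 with 1 array left out.

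Among called values, directions turned as follows. Without _x_at and _s_at probe sets, CREM was -0.0055 for torcetrapib minus DMSO and -0.054 for angiotensin II minus DMSO, and torcetrapib minus angiotensin II was 0.18 for DIAPH1, -0.10 for RAB7A and 0.10 for SIK1. With the mean of probe sets it was 0.055 for TFE3, 0.41 for CRTC3 and 0.011 for PSAP. With the index it was -0.049 for ATP6V1C1 and 0.027 for USF2. Directions of values that were not called turned too, and only examples are given. TFE3 1565347_s_at with the index was -0.24 for torcetrapib minus DMSO and -0.35 between treatments, TFEB 221866_at with the index was 0.099 between treatments, and for torcetrapib minus DMSO the mean of probe sets gave 0.067 for TFE3 and 0.052 for CRTC3. Settings that use fewer probe sets test fewer features, and for the other changes the cause was not tested.

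No paired analysis was possible because the sample titles give serial numbers that the groups do not share, and the replicate numbers used here only name the arrays. Dim probe sets, all 3 of TFEC among them, limit what can be read from small differences.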

Other observations

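Genes next to MITF on chromosome 3, each taken by its brightest probe set, were chosen after the values had been seen. The 4 measured genes before it (FRMD4B, LMOD3, ARL6IP5 and UBA3) and the 4 after it (SAMMSON, FOXP1, FOXP1-AS1 and EIF4E3) gave 0 of 8 calls in limma in each of the 3 comparisons, and 0 of 8 at an unadjusted p under 0.05. Their log2 differences ran from -0.18 to 0.07 for torcetrapib minus DMSO, from -0.12 to 0.14 for angiotensin II minus DMSO and from -0.20 to 0.04 for torcetrapib minus angiotensin II. In the same order, 0.819%, 4.64% and 9.88% of all genes passed in limma, and 11.9%, 15.2% and 23.2% had an unadjusted p under 0.05. FOXP1, a forkhead transcription factor, stood at 9.06 ± 0.01 with torcetrapib and 9.09 ± 0.02 with angiotensin II, against 9.15 ± 0.07 with DMSO (SD, n = 3 each). SAMMSON, a long noncoding RNA known from melanoma, was dim, at 3.17 with torcetrapib, 3.24 ± 0.09 with angiotensin II and 3.10 ± 0.09 with DMSO. FRMD4B, LMOD3 and FOXP1-AS1 were dim too, with means over all arrays of 4.15, 3.24 and 3.94, below the lower quartile of genes (4.87). For such dim genes the lack of a call says little.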
